A study of Mus musculus with 6 samples.

Results

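Counts of 6 chosen mature miRNAs from the miR-10 and miR-196 hairpins of the Hox gene clusters are described here. They come from 6 small RNA libraries of renal cortex. The 3p arms of the miR-196 hairpins are not among the 6 and are given later with other Hox cluster miRNAs. The members were taken by name from the deposited tables: mmu-miR-10a-5p, mmu-miR-10a-3p, mmu-miR-10b-5p, mmu-miR-10b-3p, mmu-miR-196a-5p and mmu-miR-196b-5p, which makes 6 of 1900 mature names. The rule used names and no measured value, and where a name was listed more than once the largest count in each library was taken. The libraries came from C57BL/6 mice in 2 groups of n = 3. The first group was fed the HF/HC/HS/BA diet over 8 weeks, a feed rich in fat and cholesterol to which bile salt was added. The HS in its name is a further component that is not spelled out here. The second group was fed that diet with tofogliflozin mixed in, over the same 8 weeks. Tofogliflozin inhibits SGLT2, the sodium-glucose cotransporter of the proximal tubule. All 6 mice therefore carried the diet, and a group on ordinary chow was not analysed here. Neither age nor sex is given in the labels.

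Hox genes encode transcription factors that set position along the body axis, and they lie in clusters on several chromosomes. The miR-10 and miR-196 hairpins sit between or inside these genes and are transcribed with them, and both families are known to act on Hox transcripts, miR-196a by directing cleavage of Hoxb8 mRNA. A hairpin is cut into 2 arms, named 5p and 3p, of which usually 1 is loaded into Argonaute and kept while the other is degraded. The seed, bases 2 to 8 of the mature miRNA, does most of the target recognition, so miRNAs with the same seed are grouped as a family.

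The sequences of the 6 members show why they fall into 2 families and why close pairs are hard to separate. All 6 were found in the RefSeq miRNA table of build GRCm38.p6. They are written 5′ to 3′ with the seed in capitals:
mmu-miR-10a-5p: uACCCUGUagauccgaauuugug
mmu-miR-10b-5p: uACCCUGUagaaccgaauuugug
mmu-miR-196a-5p: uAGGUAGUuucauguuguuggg
mmu-miR-196b-5p: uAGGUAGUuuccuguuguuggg
mmu-miR-10a-3p: cAAAUUCGuaucuaggggaaua
mmu-miR-10b-3p: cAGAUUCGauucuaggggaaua

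Counted from 1 at the 5′ end, mmu-miR-10a-5p and mmu-miR-10b-5p differ by the single substitution U12A, and mmu-miR-196a-5p and mmu-miR-196b-5p by A12C. Both changes lie outside the seed. In the RefSeq table each of these seeds occurs in 1 other mature miRNA, which is the partner named here. The miR-10 3p arms differ at 3 bases, A3G, U9A and A10U, so their seeds are not the same. Neither 3p seed occurs in any other mature miRNA of that table. The labels do not say how many mismatches the counting allowed, so reads with a miscalled base 12 could pass between the partners of a 5p pair.

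The hairpins show a further point, since mmu-miR-196a-5p is made from 2 loci. They and the other member hairpins are shown with both mature arms in capitals, from the same RefSeq build:
Mir10a: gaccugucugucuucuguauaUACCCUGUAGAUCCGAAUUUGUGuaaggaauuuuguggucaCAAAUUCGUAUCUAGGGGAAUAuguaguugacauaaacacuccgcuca
Mir10b: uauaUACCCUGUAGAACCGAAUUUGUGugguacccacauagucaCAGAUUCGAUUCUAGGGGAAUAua
Mir196a-1: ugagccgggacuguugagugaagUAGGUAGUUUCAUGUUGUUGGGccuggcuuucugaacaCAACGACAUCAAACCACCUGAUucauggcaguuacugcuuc
Mir196a-2: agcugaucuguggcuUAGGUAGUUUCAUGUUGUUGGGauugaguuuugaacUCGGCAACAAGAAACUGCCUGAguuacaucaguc
Mir196b: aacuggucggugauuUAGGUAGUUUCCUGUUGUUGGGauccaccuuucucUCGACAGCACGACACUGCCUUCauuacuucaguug

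The 5p arms of Mir196a-1 and Mir196a-2 are the same, whereas their 3p arms need 9 edits to be turned into each other. A read of the 3p arm can therefore be placed at 1 locus, and a read of the 5p arm cannot, unless it runs on into the hairpin loop. Positions are on GRCm38, which is mm10, the build in the submitters' processing notes, with gene models from GENCODE M21. Mir10a lies at chr11:96317165-96317274 on the plus strand, between Hoxb5 and Hoxb4 and 992 bases before the latter, in no other annotated gene. Mir196a-1 lies at chr11:96265164-96265265 on the same strand, between Hoxb13 and Hoxb9, with 51899 bases between the 2 hairpins. Mir10b lies at chr2:74726070-74726137 on the plus strand, inside the annotated Hoxd3 and Hoxd4 genes but in none of their exons. Mir196a-2 lies at chr15:102973350-102973434 on the plus strand, between Hoxc10 and Hoxc9 and inside the annotated Hoxc5 gene but in none of its exons. Mir196b lies at chr6:52230081-52230165 on the minus strand, 1031 bases from Hoxa10, and overlaps an annotated Hoxa9 exon that is neither coding sequence nor UTR.

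With the largest row of each repeated name, the total per library ran from 6643638 counts in tofogliflozin replicate 2 to 22886200. On the first principal component (52.0% of the variance) tofogliflozin replicate 2 scored 13.8, against -6.17 to 0.141 for the other 5 libraries. Markers of the tubule (4 of 4 present; miR-192-5p, miR-194-5p, miR-204-5p and miR-30a-5p) summed to 75250 to 76993 CPM (the count scaled to a common library total) on the diet alone and to 64813 to 86703 CPM with tofogliflozin. Leukocyte (5 of 5), erythroid (3 of 3) and striated muscle markers (3 of 3) summed to at most 161, 224 and 126 CPM. The highest leukocyte, erythroid and tubule sums were all in tofogliflozin replicate 2. Between the groups (tofogliflozin minus diet) only 1 of 5 leukocyte markers had a log2 fold change above 0, miR-155-5p (0.29 ± 0.37, SE). Of the tubule markers 2 of 4 were above 0, and of the erythroid markers 2 of 2 tested. Single markers of these lists were not compared by library, so no gain of a cell type is read from the high sums. In tofogliflozin replicate 2 the smooth muscle markers (2 of 2) summed to 31841 CPM, against 52568 to 57176 CPM on the diet alone and a highest value of 58495 CPM with tofogliflozin. The 2 endothelial markers were also lowest there (15284 CPM, diet-only range 18257 to 22208), and the hepatocyte miRNA miR-122-5p was highest (245 CPM, diet-only range 40.7 to 78.6). No marker list had a member at 0 in all libraries. Both low sums come almost wholly from 1 miRNA each. In that library miR-143-3p was at 31421 CPM (other libraries 52227 to 58181) and miR-126a-3p at 15059 CPM (18021 to 21967), whereas the second smooth muscle marker, miR-145a-5p, was highest there (423 CPM, other libraries 316 to 363). The second endothelial marker, miR-126a-5p, was at 226 CPM, against 238 to 256 CPM in the others.

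The miR-10 5p arms were among the most abundant miRNAs of the cortex. mmu-miR-10a-5p took 8.23% to 9.10% of the counts of a library and ranked 2 of 460 tested miRNAs, and mmu-miR-10b-5p took 6.06% to 6.83% and ranked 4. Together these carriers of the seed ACCCUGU made up 15.1% ± 0.477 of all counts (SD, n = 6 libraries). The miR-196 5p arms held 0.204% ± 0.0118 (SD, n = 6 libraries), with mmu-miR-196b-5p at rank 57 and mmu-miR-196a-5p at rank 70, the latter from the larger of its 2 rows. All 6 members together took 14.5% to 15.9% of a library. Counting error on these shares was small for the 5p arms, with 95% Wilson intervals reaching at most 0.289% of the value to either side for the miR-10 pair and 2.66% for the miR-196 pair. For the 3p arms they reached 5.95% (mmu-miR-10a-3p) and 15.6% (mmu-miR-10b-3p) of the value. These intervals cover counting error only, since the tables hold no molecular identifiers.

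All CPM are scaled by TMM factors (trimmed mean of M values), which correct for differences in composition between libraries. A miRNA gives 1 short read per molecule, so levels need no correction for length, but ligation to the adapters depends on sequence and was not measured. mmu-miR-10a-5p, from the Hoxb cluster, was at 82891, 94944 and 85415 CPM in diet-only replicates 1, 2 and 3. With tofogliflozin it was at 89933, 84838 and 82715 CPM. The groups overlapped, and the highest of the 6 libraries exceeded the lowest 1.15-fold. mmu-miR-10b-5p, its partner from the Hoxd cluster, was at 61027, 66524 and 65291 CPM on the diet alone. With tofogliflozin it was at 69507, 64315 and 60609 CPM. The highest and the lowest values were both in mice given tofogliflozin, so the diet-only range lay inside the other.

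mmu-miR-196b-5p, from the Hoxa cluster, was at 1232, 1174 and 1124 CPM on the diet alone. With tofogliflozin it was at 1195, 1323 and 1257 CPM, and tofogliflozin replicate 1 lay within the diet-only range. mmu-miR-196a-5p, from the Hoxb and Hoxc loci, was at 856, 799 and 854 CPM on the diet alone. With tofogliflozin it was at 792, 807 and 838 CPM. Its lowest and highest libraries differed by 1.08-fold, the narrowest range of the 6 members, and the groups overlapped.

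The 3p arms were scarcer and more spread. mmu-miR-10a-3p was at 224, 322 and 254 CPM on the diet alone, and at 256, 162 and 303 CPM with tofogliflozin. mmu-miR-10b-3p was at 34.4, 44.1 and 42.8 CPM on the diet alone, and at 38.5, 23.6 and 44.5 CPM with tofogliflozin. In both, tofogliflozin replicate 2 was the lowest library. The other treated libraries lay within the diet-only range, apart from the 44.5 CPM of mmu-miR-10b-3p in replicate 3. Over all tested miRNAs, tofogliflozin replicate 2 was lowest for 149 of 460 (32.4%). From highest to lowest the order of the members was mmu-miR-10a-5p, mmu-miR-10b-5p, mmu-miR-196b-5p, mmu-miR-196a-5p, mmu-miR-10a-3p and mmu-miR-10b-3p, and it was the same in every library, with no overlap of the ranges of neighbours.

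**Figure D1:**
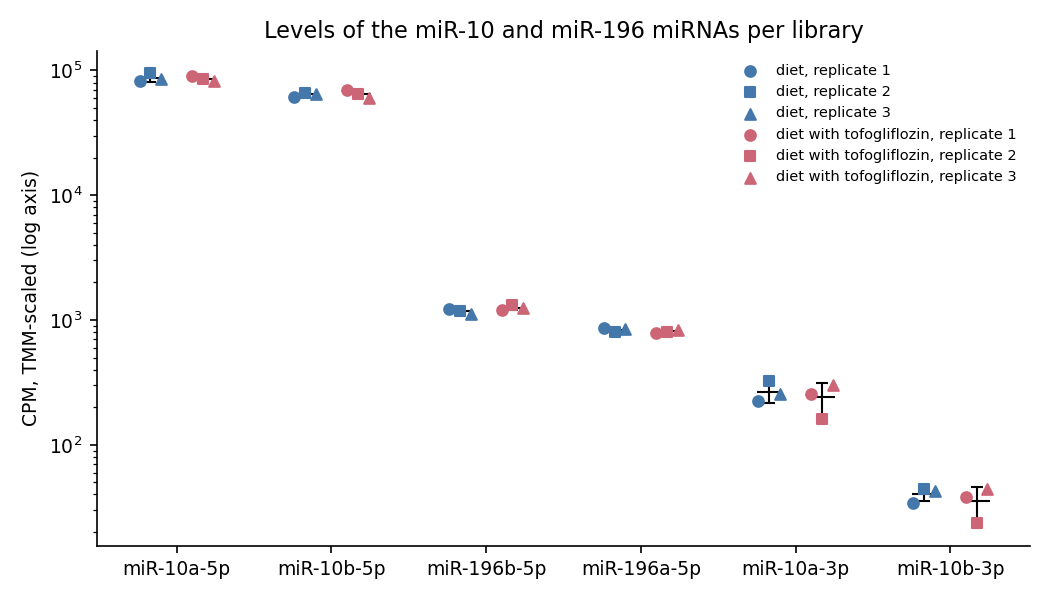
Level of each miR-10 and miR-196 miRNA in TMM-scaled CPM on a log axis, for 3 diet-only libraries (blue) and 3 libraries with tofogliflozin (red), with the mean and SD of each group. Levels run from 94944 CPM for miR-10a-5p down to 23.6 CPM for miR-10b-3p, and the groups overlap for each of the 6 members.

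No member differed detectably between the groups. In edgeR's quasi-likelihood test 0 of the 6 members passed an adjusted p of 0.05, where 0 of 460 miRNAs did (0% called). At an unadjusted p under 0.05 there were 0 members, against 23 of 460 miRNAs (5%). The log2 CPM of the groups did not overlap for 0 members, against 55 of 460 miRNAs (12%). DESeq2 called 2 miRNAs, miR-204-5p and miR-346-5p, neither of them a member, and limma-voom called 0. Of the members 2 had a log2 fold change above 0 and 4 below, with a median of -0.04, beside 226 above and 234 below and a median of -0.01 over all tested miRNAs. With n = 3 mice a group, the edgeR p-values rest on the spread between these animals, with information on spread shared across all tested miRNAs.

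The size of what could be missed differs by arm. For mmu-miR-10a-5p the log2 fold change (tofogliflozin minus diet) was -0.03 ± 0.10 (SE), with a 95% interval that keeps the fold between 0.831 and 1.15 (edgeR adjusted p = 0.973). For mmu-miR-10b-5p it was 0.01 ± 0.10, with a fold between 0.857 and 1.19 (edgeR adjusted p = 0.989). The value of mmu-miR-10a-5p turned above 0 with total counts alone, and that of mmu-miR-10b-5p below 0 with upper quartile size factors, so neither has a direction. mmu-miR-196b-5p was at 0.10 ± 0.11, with a fold between 0.900 and 1.27 (edgeR adjusted p = 0.877). mmu-miR-196a-5p was at -0.04 ± 0.11, with a fold between 0.819 and 1.15 (edgeR adjusted p = 0.969), and its value turned above 0 without tofogliflozin replicate 1. Exact permutation tests of log2 CPM gave p = 0.6 (mmu-miR-10a-5p), 1 (mmu-miR-10b-5p), 0.2 (mmu-miR-196b-5p) and 0.3 (mmu-miR-196a-5p), where 3 against 3 mice cannot go below 0.1.

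The standard errors of these 5p arms were among the smallest in the data, at ranks 5 (mmu-miR-10b-5p), 6 (mmu-miR-10a-5p), 11 (mmu-miR-196a-5p) and 14 (mmu-miR-196b-5p) from the lowest of 460, against a median of 0.276 over all tested miRNAs. edgeR shares information on spread across miRNAs, so these errors do not measure the spread of each arm alone. The within-group SD of log2 CPM was 0.05 for mmu-miR-196a-5p, rank 5 from the lowest, and 0.07 for mmu-miR-196b-5p, rank 15. For the miR-10 5p arms it was 0.08, ranks 25 (mmu-miR-10a-5p) and 24 (mmu-miR-10b-5p), against a median of 0.33.

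For the 3p arms the fits left a wider range. mmu-miR-10a-3p was at -0.15 ± 0.24, with a fold between 0.609 and 1.34 (edgeR adjusted p = 0.919). mmu-miR-10b-3p was at -0.18 ± 0.25, with a fold between 0.591 and 1.32 (edgeR adjusted p = 0.893). Without tofogliflozin replicate 2 these values were 0.07 and 0.04, and without diet-only replicate 2 that of mmu-miR-10a-3p was 0.03. The exact permutation p was 0.7 for each.

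**Figure D2:**
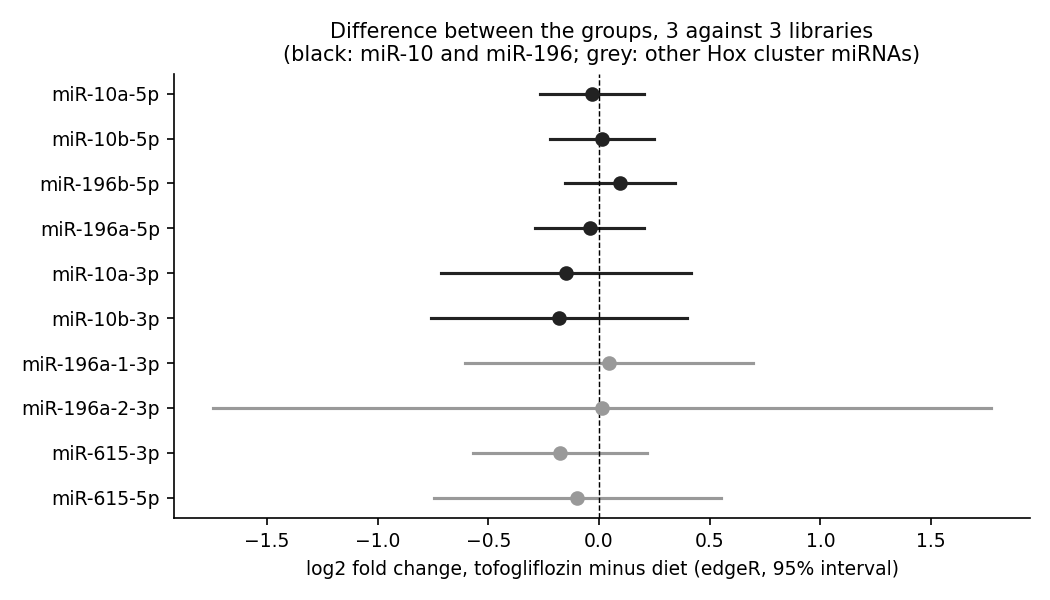
Log2 fold change (tofogliflozin minus diet) with its 95% interval from edgeR, for the 6 members (black) and the other tested miRNAs of the Hox clusters (grey). Every interval includes 0, and those of the 5p members lie between -0.29 and 0.34.

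**Figure D3:**
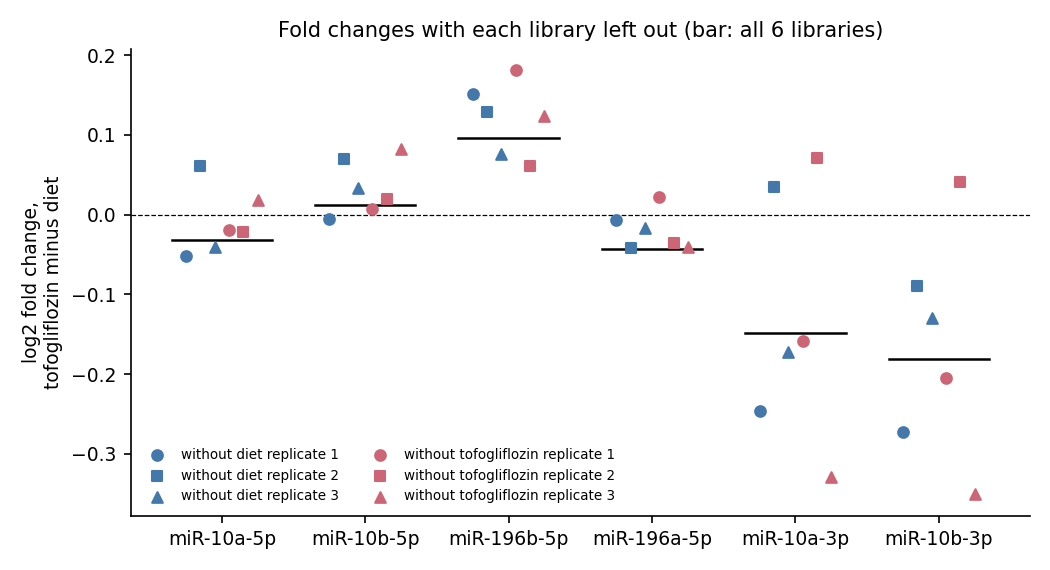
Log2 fold change of each member with 1 of the 6 libraries left out (points, colour and shape giving the library removed) and with all 6 (bar). For miR-196b-5p all values are above 0, from 0.06 to 0.18, and for the 3p arms they run from -0.35 to 0.07.

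Balance within each family was compared next, as a ratio inside each library that needs no scaling. mmu-miR-10a-5p exceeded mmu-miR-10b-5p in 6 of 6 libraries, by 1.36-, 1.43- and 1.31-fold on the diet alone and by 1.29-, 1.32- and 1.36-fold with tofogliflozin. The difference of the log2 ratio between the groups was -0.04 (exact permutation p = 0.5). mmu-miR-196b-5p exceeded mmu-miR-196a-5p in 6 of 6 libraries, by 1.44-, 1.47- and 1.32-fold on the diet alone and by 1.51-, 1.64- and 1.50-fold with tofogliflozin. For this pair the groups did not overlap, as was the case for 11.1% of all 105570 ratios of 2 tested miRNAs. The log2 ratio of mmu-miR-196a-5p to mmu-miR-196b-5p averaged -0.49 ± 0.08 for diet-only and -0.63 ± 0.07 for treated mice (SD, n = 3 each), a difference of -0.14 with an exact 2-sided permutation p = 0.1, the smallest this design allows. Adjusted over the 3 single values compared (both ratios and the summed share), the exact permutation p was 0.3. The difference was -0.09 when diet-only replicate 3 was removed and -0.10 when tofogliflozin replicate 2 was. The summed share of the 6 members was 15.2% ± 0.623 and 15.5% ± 0.345 (SD, n = 3 each; exact permutation p = 0.6).

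The arms were used very unequally. mmu-miR-10a-3p counts were 0.270%, 0.339% and 0.298% of mmu-miR-10a-5p counts on the diet alone, and 0.285%, 0.191% and 0.367% with tofogliflozin. mmu-miR-10b-3p counts were 0.0564%, 0.0663% and 0.0656% of mmu-miR-10b-5p counts on the diet alone, and 0.0554%, 0.0366% and 0.0733% with tofogliflozin. The lowest and the highest library of both hairpins were thus tofogliflozin replicates 2 and 3, on either side of all diet-only values. As a share of both arms, the miR-10a 3p arm had a 95% Wilson interval of 0.179% to 0.202% in tofogliflozin replicate 2, and of 0.262% to 0.277% in the next lowest library. For miR-10b these intervals were 0.0313% to 0.0428% and 0.0508% to 0.0604%.

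Arm ratios were set against those of the 74 hairpins whose arms share 1 hairpin name and whose scarcer arm averaged 50 counts or more. Hairpins with a locus number in the name of only 1 arm were left out, such as let-7f-1 (3p arm 13.2 CPM, let-7f-5p 84243 CPM). miR-196b, whose 3p counts averaged 0.0195% of its 5p counts, was below the limit. Within these 74 only, the imbalance of miR-10b ranked 2 and that of miR-10a ranked 10. In limma's test of the log2 ratio of 5p to 3p counts, miR-10a differed by 0.15 ± 0.30 (SE) and miR-10b by 0.24 ± 0.30 between the groups (tofogliflozin minus diet; limma adjusted p = 0.949 and 0.918). Without tofogliflozin replicate 2 these differences were -0.10 and -0.03. None of the 74 hairpins passed an adjusted p of 0.05 (0% called), 1 had an unadjusted p under 0.05 (1.35%), and 4 had groups that did not overlap (5.41%), neither miR-10 hairpin among any of them. When tofogliflozin replicate 3 was removed, 20 of 73 hairpins had an unadjusted p under 0.05 and 0 an adjusted one. Tofogliflozin replicate 2 held the lowest share of the minor arm in 28 of the 74 hairpins (37.8%), both miR-10 hairpins included, although the median of the minor-to-major ratio over the 74 was 0.04 above the hairpin mean there on the log2 scale.

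**Figure D4:**
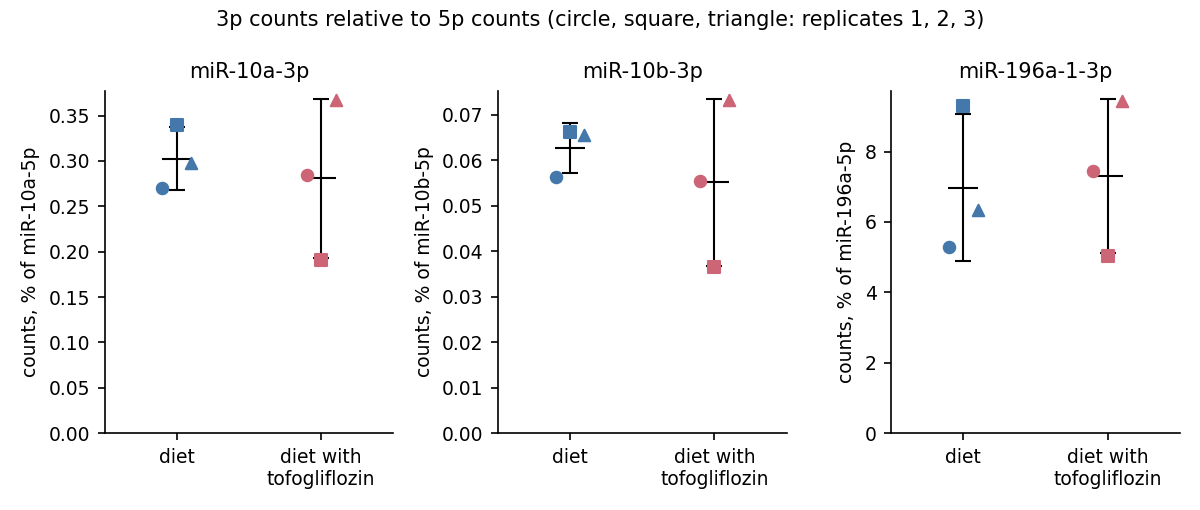
Counts of the 3p arm as a percent of counts of the 5p arm, for miR-10a, miR-10b and miR-196a-1-3p. Each library is shown by group, with the mean and SD. For miR-196a-1-3p the 5p counts are the larger miR-196a-5p row, which is listed under Mir196a-2. In the 3 panels tofogliflozin replicate 2 (square) is lowest and replicate 3 (triangle) highest, at 0.191% and 0.367% for miR-10a. Against the Mir196a-1 row, diet-only replicate 1 (1027 3p and 16256 5p counts) would lie below tofogliflozin replicate 2 (273 and 4021).

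By the spread of their ratio, the 2 miR-10 3p arms were closer to each other than to their own 5p arms. Likeness was measured as the SD over the 6 libraries of the log2 ratio of 2 miRNAs, where 0 would be a fixed ratio. For mmu-miR-10a-3p the most similar of 457 other miRNAs was mmu-miR-10b-3p (SD 0.10), while mmu-miR-10a-5p, cut from the same hairpin, ranked 106 (SD 0.33). For mmu-miR-10b-3p its own 5p arm ranked 135 (SD 0.35). The within-group SD of log2 CPM was 0.38 for mmu-miR-10a-3p and 0.37 for mmu-miR-10b-3p, against 0.08 for each miR-10 5p arm. A ratio of a spread arm to a steady one mostly carries the spread of the former. The ranks of the own 5p arms therefore show unequal spread and no separate pattern. The ratio of mmu-miR-10a-3p to mmu-miR-10b-3p stayed between 5.94 and 7.30, while the levels themselves ranged 1.99-fold (mmu-miR-10a-3p) and 1.89-fold (mmu-miR-10b-3p). Without tofogliflozin replicate 2, chosen as a check after the data were seen, the SD of the 3p pair was 0.11 (rank 5 of 459), and the own 5p arms were at 0.18 (rank 49) for mmu-miR-10a-3p and 0.17 (rank 69) for mmu-miR-10b-3p. Over the removal of each library in turn the SD of the 3p pair ran from 0.06 to 0.11 and its rank from 1 to 11. Rank 11 came without diet-only replicate 1. The SD of 0.06 came without diet-only replicate 3 and is below the 0.08 that counting error alone gives there. The own 5p arms ranked 49 to 133 and 69 to 162. The low miR-143-3p and miR-126a-3p of tofogliflozin replicate 2 stand beside its low miR-10 3p values, with miR-145a-5p high there, and the part of other cell types in this was not tested. In bulk cortex, fewer cells of a type and less RNA per cell cannot be told apart.

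Outside the members, the 2 miRNAs most like each 3p arm were miR-199a-3p and miR-199b-3p. The levels of miR-199a-3p and miR-199b-3p were nearly equal in each library (547 and 544 CPM in tofogliflozin replicate 2), so they are read as 1 observation. Over the 6 libraries the log2 ratio to miR-199a-3p had an SD of 0.02 for mmu-miR-10b-3p and of 0.10 for mmu-miR-10a-3p. miR-199a-3p was at 769, 1012 and 992 CPM on the diet alone and at 893, 547 and 1044 CPM with tofogliflozin. Its lowest library was again tofogliflozin replicate 2. The other arm and the clustered miR-214 hairpin, added after their values were seen, did not all share this. In that library miR-199a-5p was at 261 CPM (other libraries 205 to 263), miR-214-3p at 12.8 CPM (11.4 to 16.1) and miR-214-5p at 15.7 CPM (20.7 to 26.2). An SD of 0.02 is below the 0.07 that counting error alone gives for these counts, and it is the smallest of 457, and no closeness is read from its exact size. Without tofogliflozin replicate 2 it was 0.03 (rank 1), and mmu-miR-10a-3p was at 0.11 (rank 7), and without diet-only replicate 1 the latter was also at 0.11 (rank 13).

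**Figure D5:**
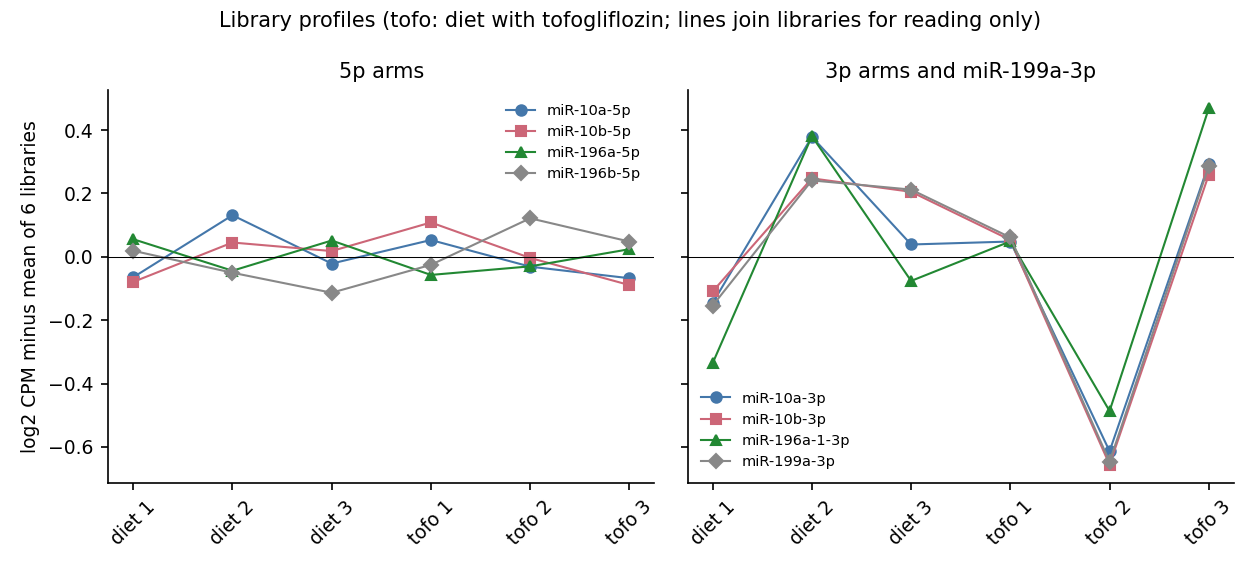
Log2 CPM in each library minus the mean of the 6 libraries, for the 4 5p members (left) and for the 3p arms with miR-199a-3p (right). The 5p arms stay within 0.24 log2 units from lowest to highest, while the 3p arms span 0.92 to 0.99 and share a low value in tofogliflozin replicate 2.

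The 5p arms had other neighbours by the same measure. mmu-miR-10a-5p was most like miR-26a-5p (SD 0.05) and let-7f-5p (SD 0.07), with mmu-miR-10b-5p ranked 2 between them (SD 0.05). mmu-miR-10b-5p was most like miR-331-3p (SD 0.04) and miR-148b-3p (SD 0.05). miR-331-3p was at only 9.07 to 10.4 CPM, where counting error alone gives an SD of 0.13, so no closeness is read from this pair. mmu-miR-196a-5p was most like miR-106b-3p and miR-187-3p (SD 0.06 each). mmu-miR-196b-5p was most like miR-501-3p (SD 0.04) and miR-378a-3p (SD 0.06). Its partner was further off, since from mmu-miR-196a-5p it ranked 15 (SD 0.10).

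The files list mmu-miR-196a-5p once for each of its 2 loci, and the rows were not the same. The Mir196a-2 row was the larger in 6 of 6 libraries, and the Mir196a-1 row held 83.6%, 86.8% and 82.0% of it on the diet alone and 83.0%, 74.3% and 87.0% with tofogliflozin. The 3p arms, which tell the loci apart, were distributed the other way. miR-196a-1-3p, of the Hoxb cluster, had 273 to 1428 counts in a library and 5375 in all, whereas miR-196a-2-3p, of the Hoxc cluster, had 1 to 22 counts and 66 in all. How the 5p molecules divide between the loci cannot be read from either, since a shared 5p read can be listed under both and the arms of each hairpin can be kept to different degrees.

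Other mature miRNAs of the Hox clusters showed no called change (0 of 4 tested, of 5 listed). miR-196a-1-3p averaged 57.9 ± 14.9 CPM in diet-only and 59.6 ± 19.1 CPM in treated mice (SD, n = 3 each). Its counts equalled 5.05% to 9.43% of the larger mmu-miR-196a-5p row, a far larger share than that of either miR-10 3p arm. That row is listed under Mir196a-2, whereas both miR-10 arms come from 1 hairpin, so the bases of these shares differ. The lower Mir196a-1 row would make the share of miR-196a-1-3p higher. Its lowest library was tofogliflozin replicate 2 (40.7 CPM) and its highest tofogliflozin replicate 3 (79.0 CPM), and its log2 ratio to mmu-miR-10a-3p had an SD of 0.14 (rank 7). That rank was 19 without tofogliflozin replicate 2, and 4 to 21 over the removal of each library in turn. miR-615-3p, from a hairpin inside Hoxc5 that lies 41475 bases beyond Mir196a-2, averaged 3697 ± 396 CPM on the diet alone and 3274 ± 688 CPM in treated mice (SD, n = 3 each), above both miR-196 5p arms. Its log2 fold change of -0.18 ± 0.17 (SE) was -0.03 ± 0.13 without tofogliflozin replicate 2. In miR-615 the 3p arm is the one kept, and its 5p arm held 0.0881% to 0.139% as many counts. miR-196b-3p had 0 to 11 counts, did not pass the filter on low counts, and at 0 counts in diet-only replicate 2 and tofogliflozin replicate 3 allows up to 0.210 and 0.174 CPM. These limits are 3 counts over the library total, without TMM scaling.

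Relatives of miR-10 in sequence were set beside it. They share most of their letters with mmu-miR-10a-5p but have another seed, ACCCGUA, as shown for the closest of them:
mmu-miR-100-5p: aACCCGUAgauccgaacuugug

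mmu-miR-100-5p is 3 edits away from mmu-miR-10a-5p and miR-99a-5p is 4 edits away. mmu-miR-100-5p averaged 1668 ± 71.5 CPM on the diet alone and 1616 ± 173 CPM in treated mice (SD, n = 3 each). Between the groups its log2 fold change came to -0.05 ± 0.12 (SE). miR-99a-5p averaged 47197 ± 2234 CPM on the diet alone and 37858 ± 9425 CPM in treated mice (SD, n = 3 each). Here the fitted log2 fold change was -0.32 ± 0.18 (SE, edgeR adjusted p = 0.854), and its lowest library, at 27392 CPM, was tofogliflozin replicate 2. Without that library the log2 fold change was -0.13 ± 0.09 (edgeR adjusted p = 0.915). The highest and lowest libraries differed by 1.82-fold for miR-99a-5p, or by 1.23-fold without tofogliflozin replicate 2, and by 1.15-fold for mmu-miR-10a-5p with or without it. Over all 6 libraries they differed by 1.24-fold for mmu-miR-100-5p and by 1.21-fold for miR-99b-5p, whose log2 fold change was -0.06 ± 0.11 (SE).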

How the data were processed

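Small RNA of renal cortex from 6 mice was sequenced after a NEBNext small RNA preparation, per the labels' protocols. Deposited were raw read counts, which the authors left unnormalized, as 1 table of 2033 rows (mature miRNA and precursor) for each library. Per the submitters' processing notes, cutadapt 1.14 and build mm10 were used. Aligner, counter and miRBase release: not given in the sources used here. Of 75 repeated names the largest row was taken. Columns of other samples numbered 0.

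Members and lists were chosen with earlier results of these data known. edgeR 4.0.16 in R 4.3.3 (quasi-likelihood test, TMM, filterByExpr with a smallest count of 10 and total of 15, Benjamini-Hochberg adjustment, threshold 0.05) was fitted to all 6 libraries without covariates and left 460 miRNAs. Log2 CPM used a prior count of 2. Arm ratios used limma 3.58.1 with a pseudocount of 1. Single values were compared with exact 2-sided permutation tests of 20 arrangements. Named miRNAs are the members, other Hox cluster miRNAs, miR-99 and miR-100, and per member the 2 non-members with the smallest SD of the log2 ratio. Marker names miR-142a and miR-486a were matched to miR-142 and miR-486. Scripts were tested on simulated data. Alternatives were other size factors and filters, DESeq2 1.42.0, limma-voom, a replicate block, other handling of repeated rows, other arm settings and each library left out. Leaving out libraries for likeness and for non-member miRNAs was added after the data were seen.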

Additional observations from a re-analysis of the deposited data

How the results depend on the processing

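No member passed the threshold under any alternative run. The count of called miRNAs was 0 except with no filter on low counts (10 of 1026) and with DESeq2 (2 of 460), and arm usage gave 0 calls throughout. Of the members' fold changes and arm differences under alternatives, 103 kept their sign and 13 changed it, and the cause was not tested. The log2 fold change of miR-10a-5p was 0.0064 with total count alone and 0.0043 with differing rows summed, and that of miR-10b-5p was -0.024 with upper quartile factors and -0.013 with no filter. When each library was left out in turn, the lowest and highest values were -0.052 and 0.061 for miR-10a-5p, -0.0052 and 0.082 for miR-10b-5p, -0.33 and 0.071 for miR-10a-3p, -0.35 and 0.041 for miR-10b-3p, and -0.041 and 0.022 for miR-196a-5p. They were -0.10 and 0.37 for the miR-10a arm difference, -0.027 and 0.47 for that of miR-10b, and -0.091 and 0.495 percentage points for the summed share. Unadjusted p-values under 0.05 numbered 23 with all libraries, 75 without tofogliflozin replicate 3 and 11 when diet-only replicate 2 was left out. With a replicate block, 0 miRNAs were called, 10 had an unadjusted p under 0.05, and the miR-196a-5p to miR-196b-5p difference was -0.14 (exact permutation p = 0.25, the smallest possible with 3 pairs). The labels do not say that the replicate numbers pair mice, so the numbers were not used as pairs in the main tests. Deviations of mice with the same number correlated across miRNAs at r = 0.003, -0.135 and -0.172, which cannot settle whether mice were paired. Depth limits the 3p arms most, with 158 counts of miR-10b-3p in tofogliflozin replicate 2.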
